A study of Mus musculus with 2 samples.

Results

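Integrins and cadherins are receptors that hold a cell to its matrix and to its neighbours, and 48 of their genes were measured here in M210B4, a stromal cell line established from mouse bone marrow. The 48 are every gene whose symbol names an integrin alpha subunit, an integrin beta subunit or a numbered cadherin and which has a probe set of its own, out of 22180 genes measured in all. They comprise 25 integrin and 23 cadherin genes. The RefSeq gene table lists 49 such symbols, and Itga10 was not analysed here for want of a probe set with that symbol alone. One culture received a CD84-activating antibody (clone 152-1D5) for 24 h, CD84 being a self-binding surface receptor of the SLAM family, and its control received an IgG1 isotype antibody for the same time. Both were kept in medium with 2% serum at 37 °C and 5% CO2, and RNA of each went onto 1 array (Affymetrix Mouse Gene 2.0 ST). Every difference is therefore between 2 arrays, without replicates, errors or p-values, and whether a difference exceeds the spread between cultures could not be tested.

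An integrin is a heterodimer of an alpha and a beta subunit that spans the membrane, binds matrix proteins or counter-receptors outside and couples to actin through talin and kindlin inside. Classical cadherins bind cadherins on neighbouring cells through calcium-dependent extracellular repeats and hold beta-catenin and p120-catenin with their cytoplasmic tails. In marrow, integrins and cadherins of stromal cells take part in anchoring the cells to matrix and in contacts with blood and bone cells.

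Values are log2 expression levels as deposited, and a difference is the anti-CD84 value minus the IgG1 value. A gene was called detected when it lay above 4.84 on at least 1 array, the 95th percentile of 1394 olfactory and vomeronasal receptor genes, genes that are not expected in stroma. Of the 11 stromal markers listed for the check of the label, 8 were above this level on both arrays, among them Pdgfra, Pdgfrb and Col1a1. Eng and Lum were below it on both, and Thy1 was at 4.39 after anti-CD84 and 4.95 after IgG1. Cd84 itself was at 4.15 after anti-CD84 and 3.82 after IgG1, below the level on both. In a whole culture, fewer cells of a type and less RNA per cell cannot be told apart.

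Of the 48 genes, 30 were detected, 23 of them on both arrays, 2 after anti-CD84 alone and 5 after IgG1 alone. Over all 22180 genes, 13284 were detected, 11761 on both arrays, 705 after anti-CD84 alone and 818 after IgG1 alone. By the values as measured, the difference was 1.5-fold or more for 4 of the 30 upward, Cdh18, Cdh24, Itgb8 and Cdh7, and for 2 downward, Cdh1 and Cdh5. Cdh7, Cdh1 and Cdh5 were each below the level on 1 array, and counted from that level Cdh7 was at least 1.19-fold higher. The 4 and 2 are 13.3% higher and 6.67% lower, against 10.7% higher and 6.40% lower of all 13284 detected genes, so both shares lay near the background. With the differences centred on the median of all detected genes, 3 were higher and 3 lower. None of the 30 differed by 2-fold (0 higher and 0 lower), a size reached by 1.98% of detected genes in the higher and 1.43% in the lower direction. The median difference was 0.13, beside 0.09 for all detected genes. The 3 genes past 1.5-fold with both values above the level, Cdh18, Cdh24 and Itgb8, were higher (3 higher and 0 lower of 23), against 9.57% higher and 3.89% lower of the 11761 genes measured on both.

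**Figure D1:**
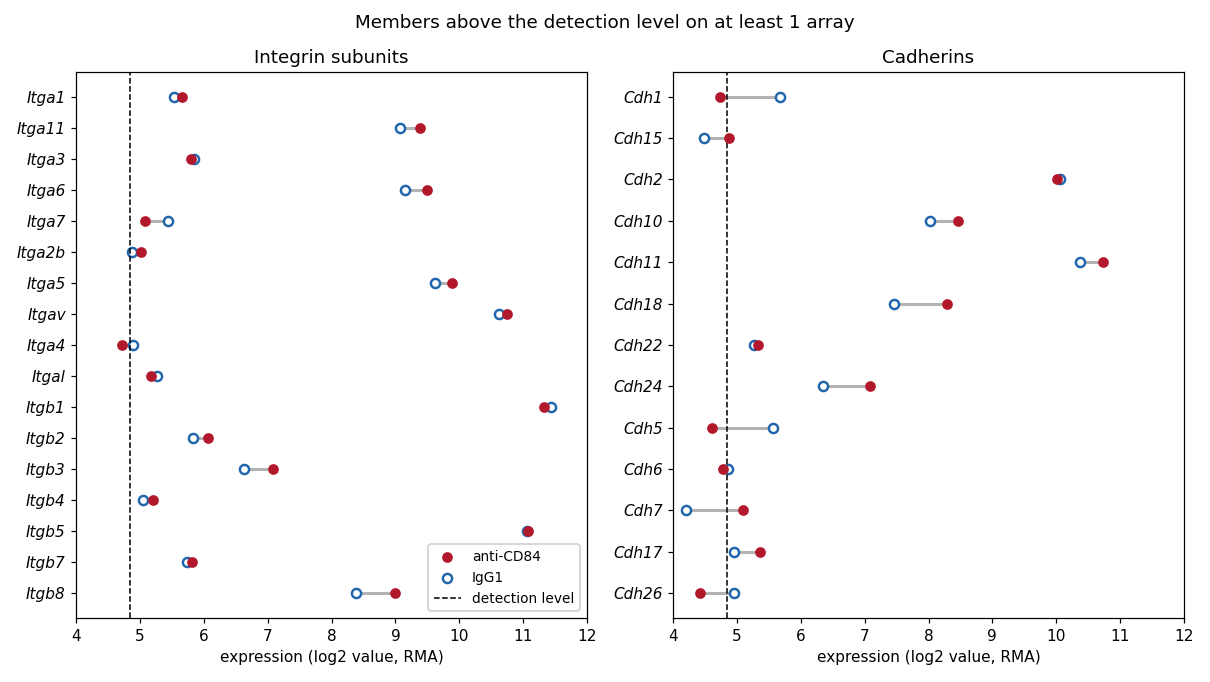
Log2 expression of the 30 detected genes, 17 integrin subunits on the left and 13 cadherins on the right, with filled points for the anti-CD84 array, open points for the IgG1 array and a dashed line at the detection level of 4.84. Cdh18, Cdh24 and Itgb8 lie to the right of their IgG1 points and clear of the dashed line, while the wide gaps of Cdh1, Cdh5 and Cdh7 cross it.

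The promoter windows of Cdh18, Cdh24 and Itgb8 are printed because these were the genes past 1.5-fold with both arrays above the detection level. Each runs from 250 bases before to 50 bases after the RefSeq start of the gene. Capitals mark the letters of 4 motifs searched on both strands, the E-box CAGGTG, which Snail and Zeb repressors of cadherin genes can bind, the GC box GGGCGG, the AP-1 site TGANTCA and the TATA box TATAAA, none of which overlapped in these windows.
Cdh18 promoter, GRCm38.p6 chr15:23036213-23036512, plus strand: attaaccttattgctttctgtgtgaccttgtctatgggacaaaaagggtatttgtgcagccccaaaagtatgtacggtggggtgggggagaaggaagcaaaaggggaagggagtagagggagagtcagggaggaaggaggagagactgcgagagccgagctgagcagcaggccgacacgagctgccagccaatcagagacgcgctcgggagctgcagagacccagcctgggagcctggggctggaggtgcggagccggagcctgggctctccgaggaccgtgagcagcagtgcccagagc
Cdh24 promoter, GRCm38.p6 chr14:54641315-54641614, minus strand: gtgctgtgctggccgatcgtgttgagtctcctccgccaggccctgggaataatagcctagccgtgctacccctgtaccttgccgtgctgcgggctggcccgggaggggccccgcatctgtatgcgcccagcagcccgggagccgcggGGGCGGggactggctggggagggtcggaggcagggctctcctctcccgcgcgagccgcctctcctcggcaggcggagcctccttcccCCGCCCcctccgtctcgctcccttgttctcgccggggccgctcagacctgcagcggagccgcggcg
Itgb8 promoter, GRCm38.p6 chr12:119238227-119238526, minus strand: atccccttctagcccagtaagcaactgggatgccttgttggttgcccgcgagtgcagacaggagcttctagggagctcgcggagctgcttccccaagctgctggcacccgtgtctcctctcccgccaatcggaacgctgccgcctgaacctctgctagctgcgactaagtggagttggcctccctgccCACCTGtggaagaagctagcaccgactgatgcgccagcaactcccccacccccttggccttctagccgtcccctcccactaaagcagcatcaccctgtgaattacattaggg
The Cdh18 window holds 0 of the 4 motifs, the Cdh24 window 2 GC boxes and the Itgb8 window 1 E-box, as CACCTG on the printed strand. Over 27025 genes with a window, 1 window a gene, 20.0% hold the E-box, 35.9% the GC box, 7.93% the AP-1 site and 14.2% the TATA box. Windows were found for 30 of the 48 genes, of which 6 hold the E-box, 13 the GC box, 2 the AP-1 site and 0 the TATA box. The GC content was 60.3% for Cdh18, 73.3% for Cdh24 and 60.7% for Itgb8, beside medians of 58.8% over the 30 windows and 52.7% over all. A match is a run of letters and not a site shown to be bound.

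Among the alpha subunits that bind collagen, Itga11 and Itga1 were detected and Itga2 was not. Itga11, a collagen receptor subunit of fibroblasts and other mesenchymal cells, had a level of 9.38 after anti-CD84 and 9.08 after IgG1, a difference of 0.30. Itga1, a receptor subunit for collagen and laminin, was at 5.66 after anti-CD84 and 5.54 after IgG1. Both lay within 1.5-fold, and both kept their sign when the arrays were rescaled.

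The laminin-binding subunits had differences of either sign. Itga6, which pairs with beta1 or with beta4, was at 9.49 after anti-CD84 and 9.15 after IgG1, a difference of 0.34. Itga7, best known from skeletal muscle, was at 5.08 after anti-CD84 and 5.44 after IgG1, a difference of -0.36 close to the detection level. Itga3 differed by -0.04, with levels of 5.79 after anti-CD84 and 5.84 after IgG1. All 3 lay within 1.5-fold.

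Among the subunits whose dimers recognise the RGD tripeptide of fibronectin and vitronectin, the 3 detected genes were slightly higher after anti-CD84. Itga5, the partner of beta1 in the main fibronectin receptor, was at 9.88 after anti-CD84 and 9.62 after IgG1, a difference of 0.27. Itgav, which pairs with several beta subunits, was at 10.75 after anti-CD84 and 10.63 after IgG1, a difference of 0.12. Itga2b, the platelet integrin subunit, was at 5.01 after anti-CD84 and 4.87 after IgG1, just above the detection level. Itga8 did not reach it on either array. Of the megakaryocyte markers listed, 4 were measured and 3 were below the level on both arrays, with Gp9 at 4.44 after anti-CD84 and 5.02 after IgG1.

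Itga4, the subunit of the Vcam1 receptor of blood cells, stood at 4.72 after anti-CD84 and 4.89 after IgG1, on either side of the detection level, and Itga9 was below it on both. Of the 5 alpha subunits typical of leukocytes, Itgal was the 1 detected, at 5.17 after anti-CD84 and 5.26 after IgG1, a difference of -0.09. Itgad, Itgae, Itgam and Itgax were below the level on both arrays. Blood cell markers had 1 of 9 measured genes above the level on both arrays, Spi1 at 4.88 after anti-CD84 and 5.02 after IgG1, and 6 of 9 below it on both, including the pan-leukocyte gene Ptprc at 3.90 after anti-CD84 and 3.86 after IgG1. Csf1r was at 4.86 after anti-CD84 and 4.14 after IgG1, and Tyrobp at 4.30 after anti-CD84 and 4.85 after IgG1. Summed on a linear scale, the blood cell markers came to 176 after anti-CD84 and 196 after IgG1. That sum includes the 6 genes below the level, so it is largely signal near background. The 11 stromal markers came to 2.06e+04 after anti-CD84 and 1.70e+04 after IgG1.

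Of the 8 beta subunits 7 were detected, Itgb8 with the widest gap of the 17 detected integrins, and all 7 were above the level on both arrays. Itgb8, which with Itgav forms a receptor that activates latent TGF-beta, was at 8.99 after anti-CD84 and 8.39 after IgG1, a difference of 0.61 or 1.52-fold. It was thus just past 1.5-fold, and under each of 3 other scalings its difference was 0.51 to 0.52 and inside that threshold. Genes with mean levels from 7 to 9, as Itgb8 has, differed with a standard deviation of 0.37, and 9.82% of them were 1.5-fold higher.

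Itgb3, the other detected beta subunit with a gap over 0.4, pairs with Itgav in the vitronectin receptor. It was at 7.08 after anti-CD84 and 6.63 after IgG1, a difference of 0.45. Itgb1, the shared partner of most matrix-binding alpha subunits, was at 11.33 after anti-CD84 and 11.43 after IgG1, a difference of -0.10. Itgb5, a further partner of Itgav, was at 11.08 after anti-CD84 and 11.06 after IgG1. The sign of its difference of 0.02 turned when the arrays were rescaled. The spread of differences for genes with mean levels over 11 was 0.22 (SD across 272 genes), wider than either gap.

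Itgb2, the leukocyte beta subunit, was detected although most of its alpha partners were not. Its levels were 6.06 after anti-CD84 and 5.82 after IgG1, a difference of 0.24. Itgb4, which anchors epithelial cells to the basement membrane, was at 5.21 after anti-CD84 and 5.05 after IgG1. Itgb7, a lymphocyte subunit, was at 5.81 after anti-CD84 and 5.74 after IgG1, and the sign of its difference of 0.07 turned under centring and quantile normalization. Itgb6, an epithelial subunit, did not reach the detection level on either array.

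Of the 24 known integrin heterodimers, alpha10beta1 could not be assessed because Itga10 was not analysed. Read as pairs, 13 of the 24 had both subunits above the detection level on both arrays, and 7 of those 13 contain beta1. With both subunits also above 6.88 on at least 1 array, the 75th percentile of all values, there were 7, namely alpha5beta1, alpha6beta1, alpha11beta1, alphavbeta1, alphavbeta3, alphavbeta5 and alphavbeta8. In the 4 of these with alphav the alpha difference is the same 0.12, and the beta differences were -0.10 for beta1, 0.45 for beta3, 0.02 for beta5 and 0.61 for beta8. The pair alphavbeta3 passed 6.88 through the anti-CD84 array alone, with Itgb3 at 7.08 after anti-CD84 and 6.63 after IgG1. Presence of both RNAs does not show that the dimer was at the surface, since no protein was measured. As a family, 17 of 25 integrins were detected, of which 1 was 1.5-fold higher and 0 lower (5.88% and 0.00%, beside 10.7% and 6.40% of all detected genes), with a median difference of 0.12.

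**Figure D2:**
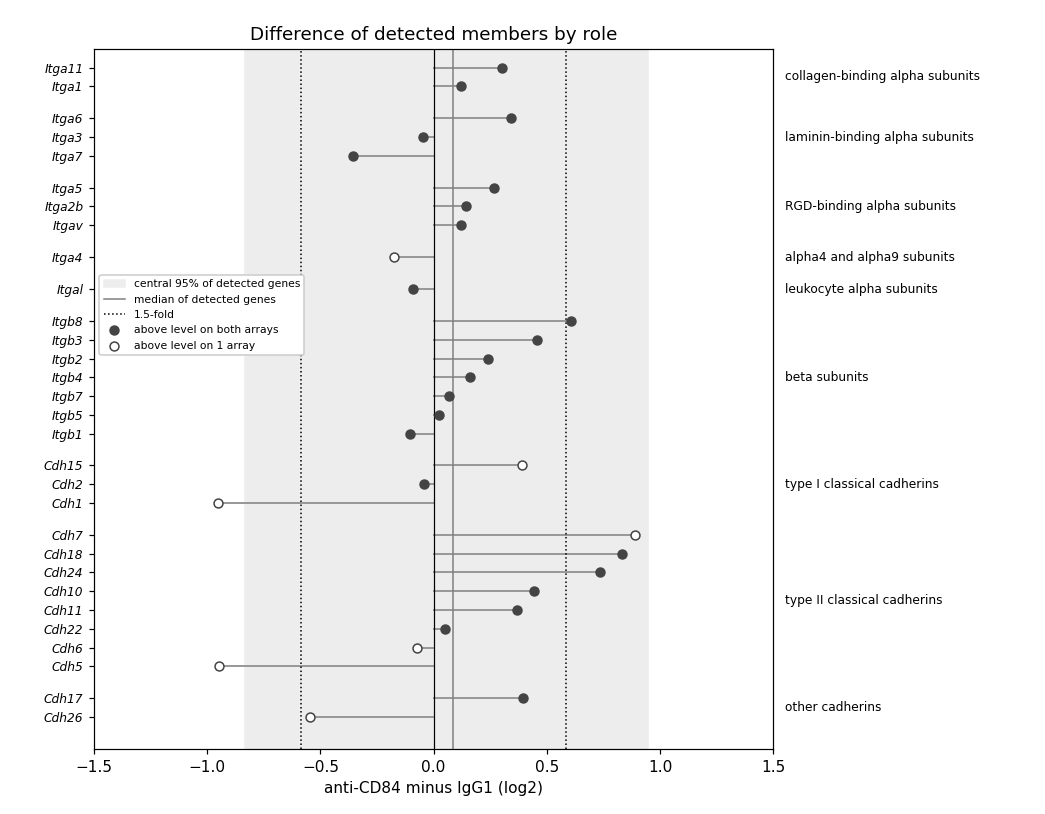
Difference in log2 level, anti-CD84 minus IgG1, of the 30 detected genes, grouped by role, with filled points for genes above the detection level on both arrays and open points for genes above it on 1. The shaded band holds the central 95% of all detected genes, from -0.83 to 0.95, dotted lines mark 1.5-fold and the grey line the median of all detected genes; Cdh1 and Cdh5 lie outside the band and every integrin inside it.

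Type II classical cadherins, which lack the HAV adhesion tripeptide of type I members, had 8 of 13 genes detected, with measured differences of 1.5-fold upward for 3 and downward for 1, where 10.7% and 6.40% of all detected genes had them. Of the 5 above the level on both arrays, 2 were 1.5-fold higher and 0 lower, beside 9.57% and 3.89% of all genes measured on both. Cdh18, known from the nervous system, was at 8.30 after anti-CD84 and 7.46 after IgG1, a difference of 0.83 or 1.78-fold. Cdh24, which binds catenins as other classical cadherins do, was at 7.09 after anti-CD84 and 6.35 after IgG1, a difference of 0.73 or 1.66-fold. Both stayed past 1.5-fold (0.585 in log2) under the 3 other scalings, Cdh24 narrowly at 0.609 under quantile normalization. Genes with mean levels from 5 to 7, as Cdh24 has, differed with an SD of 0.48, and 13.3% were 1.5-fold higher. From 7 to 9, where Cdh18 lies, the SD was 0.37 and 9.82% were 1.5-fold higher.

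Cdh10, likewise best known from brain, was at 8.47 after anti-CD84 and 8.02 after IgG1, a difference of 0.44 or 1.36-fold. Cdh11, the mesenchymal cadherin first known from osteoblasts, was at 10.74 after anti-CD84 and 10.37 after IgG1, a difference of 0.37 or 1.29-fold. Genes with mean levels from 9 to 11 had a standard deviation of 0.31 and 5.32% were 1.5-fold higher. Cdh22 was at 5.32 after anti-CD84 and 5.27 after IgG1, and the sign of its difference of 0.05 turned when the differences were centred. These 5 type II genes, each with both arrays above the detection level, were higher after anti-CD84 in the deposited values. So were 7845 of all 13284 detected genes, and with centring Cdh22 was no longer among the higher genes.

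The other type II genes lay at the detection level. Cdh7 was at 5.09 after anti-CD84 and at 4.20, below the level, after IgG1, so it was at least 1.19-fold higher counted from the level. A fold written "at least" takes the brighter value without noise and is no statistical bound. Cdh6 was at 4.78 after anti-CD84 and 4.85 after IgG1. Cdh5, the cadherin of endothelial junctions, was at 4.61, below the level, after anti-CD84 and 5.56 after IgG1, at least 1.65-fold lower. For genes with mean levels from 5 to 7 the differences had an SD of 0.48, and 7.69% were 1.5-fold lower.

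Beside Cdh5, endothelial markers had 7 of 9 genes below the level on both arrays, Kdr, Tek and Vwf among them. Emcn was above it on both, at 5.19 on each. Pecam1 was at 4.32 after anti-CD84 and 4.99 after IgG1. The linear sum of the 9 endothelial markers was 197 after anti-CD84 and 222 after IgG1. It includes the 7 genes below the level, and the part of these markers in the Cdh5 difference was not tested.

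Cdh6, Cdh9, Cdh10, Cdh12 and Cdh18 lie in a row on chromosome 15 in the RefSeq order (GRCm38.p6), with 0 protein-coding genes between the first 4 and 1 between Cdh12 and Cdh18. Within that row Cdh10 and Cdh18 were the genes well above the detection level, Cdh6 was at it, and Cdh9, at 3.19 after anti-CD84 and 3.28 after IgG1, and Cdh12, at 3.82 after anti-CD84 and 3.91 after IgG1, were below it. On chromosome 8 the neighbours Cdh8, Cdh11 and Cdh5 follow each other with 0 protein-coding genes between them, and their differences did not share a sign, with Cdh8 below the level on both arrays.

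Among type I cadherins, Cdh2 (N-cadherin), the mesenchymal and neural member, was at 10.02 after anti-CD84 and 10.06 after IgG1, a difference of -0.04. A further, dimmer probe set of Cdh2 read 6.70 after anti-CD84 and 7.24 after IgG1, a difference of -0.54. Both are negative and differ in size, and their mean gave -0.29. Cdh15, the muscle cadherin, was at 4.87 after anti-CD84 and 4.48 after IgG1, at least 1.02-fold higher.

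Cdh1 (E-cadherin), the cadherin of epithelia, was at 4.73, below the level, after anti-CD84 and 5.68 after IgG1, at least 1.79-fold lower. Its further probe set was below the level on both arrays, at 3.76 after anti-CD84 and 3.84 after IgG1, and with the mean of both probe sets Cdh1 was no longer detected. Cdh3 and Cdh4 were below the level on both arrays. Of 8 epithelial markers measured, 5 were below the level on both, including Epcam at 3.48 after anti-CD84 and 3.41 after IgG1, while Krt8, Krt18 and Cldn3 were above it on both. The linear sum of the 8 epithelial markers was 211 after anti-CD84 and 229 after IgG1. It includes the 5 genes below the level, and the part of these markers in the Cdh1 difference was not tested.

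Of the 5 cadherins outside both classical types, Cdh17 and Cdh26 were detected. Cdh17, the liver and intestine cadherin, was at 5.35 after anti-CD84 and 4.96 after IgG1, a difference of 0.39. Cdh26 was at 4.41, below the level, after anti-CD84 and 4.96 after IgG1, at least 1.08-fold lower. As a family, 13 of 23 cadherins were detected, with measured differences of 1.5-fold upward for 3 and downward for 2. Of these 5, Cdh7, Cdh1 and Cdh5 counted as detected through the array where they were high, and of the 7 cadherins above the level on both arrays 2 were 1.5-fold higher and 0 lower, beside 9.57% and 3.89% of all genes measured on both. The median difference of the 13 was 0.37, and it was -0.02 over all 23 with no level filter and 0.05 with values floored at the detection level.

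The 18 genes below the level on both arrays had values from 3.19 to 4.77, and no fold is given for them. They are Itga2, Itga8, Itga9, Itgad, Itgae, Itgam, Itgax and Itgb6, and Cdh3, Cdh4, Cdh8, Cdh9, Cdh12, Cdh13, Cdh16, Cdh19, Cdh20 and Cdh23. At the other end, 11 genes had a mean of both arrays above 6.88, a split added after seeing the data. Of these 2 were 1.5-fold higher, Cdh18 and Itgb8, and 0 lower, where 8.33% of the 7038 genes above that mean were higher and 2.42% lower. Their median difference was 0.30, beside 0.11 for those 7038 genes. Positive differences numbered 9 of the 11, beside 4542 of the 7038. Itgb1 and Cdh2 were below 0, and Itgb5 changed sign when rescaled.

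**Figure D3:**
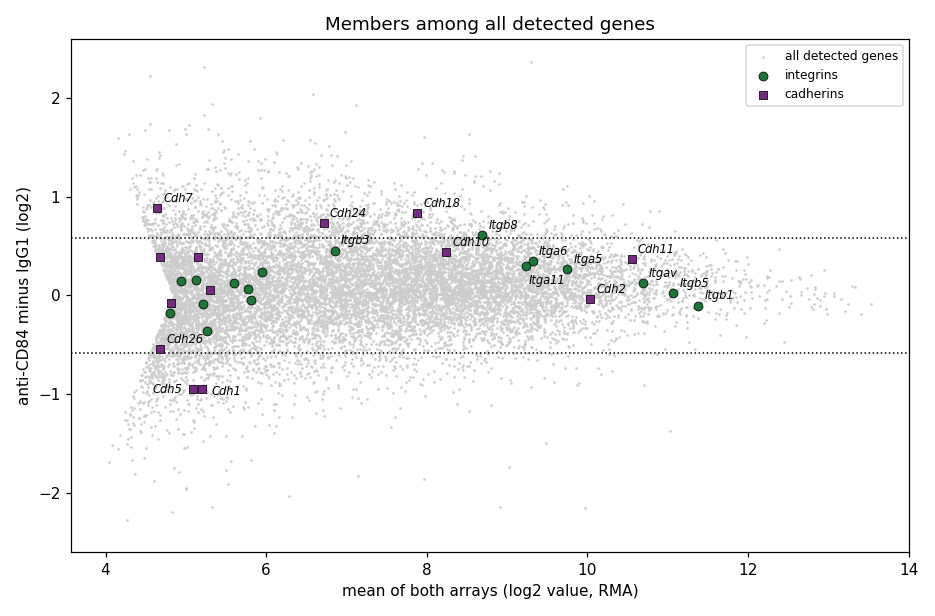
Difference in log2 level, anti-CD84 minus IgG1, against the mean log2 level of both arrays for all detected genes (grey), integrins (circles) and cadherins (squares), with dotted lines at 1.5-fold; 2 genes beyond 2.6 on the vertical axis are not drawn. The cloud narrows to the right, where Itgb1 and Itgb5 lie near 0, and Cdh18 and Itgb8 lie above the upper dotted line in the middle of the level range.

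Among genes that work with integrins inside the cell, 34 of the activation and adhesion complex list were detected. Of these 2 were 1.5-fold higher and 0 lower (5.88% and 0.00%, beside 10.7% and 6.40% of all detected genes), with a median difference of 0.12 beside 0.09. Tgfb1i1, the paxillin relative Hic-5, was 1.77-fold higher (9.63 after anti-CD84 and 8.80 after IgG1), and Sharpin, an inhibitor of integrin activation, 1.74-fold higher (9.17 after anti-CD84 and 8.37 after IgG1). Itgb3bp differed by -0.52, the tetraspanin gene Cd81 by 0.47 and the talin-binding Kank2 by 0.41.

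Among 31 detected integrin ligands 3 were 1.5-fold higher and 1 lower (9.68% and 3.23%, beside the same 10.7% and 6.40%), with a median of 0.05. The laminin chain Lama2 was at 9.37 after anti-CD84 and 8.71 after IgG1, a difference of 0.66. Tgfbi and Postn, related matrix proteins that bind integrins, differed by 0.66 and 0.63. With the differences centred the median was -0.03 and the split was 0 higher and 1 lower, and with the loess curve removed or quantile normalization 1 higher and 1 lower. Col4a1, a basement membrane collagen, was the lower gene, at 9.14 after anti-CD84 and 10.02 after IgG1. Lama4 differed by 0.52, Tnc by 0.45 and Lamb2 by 0.44.

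On the cadherin side, 20 catenins and junction partners were detected, 1 of them 1.5-fold higher and 1 lower (5.00% each way, beside 10.7% and 6.40%), with a median of -0.14. Jup (plakoglobin), a catenin shared by classical and desmosomal junctions, was 1.95-fold higher, at 6.61 after anti-CD84 and 5.65 after IgG1. Nectin2, an adhesion receptor of the same junctions, was 1.52-fold lower, at 5.93 after anti-CD84 and 6.53 after IgG1. Ctnnbip1, which binds beta-catenin, differed by 0.36, Ctnnd1, which encodes p120-catenin, by -0.35, and Plekha7 by -0.37 with its anti-CD84 value below the level. Beta-catenin itself, Ctnnb1, named after its values were seen, was at 10.59 after anti-CD84 and 10.60 after IgG1.

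Desmosomal cadherins had 3 of 9 genes detected. Dsg2 was at 3.89, below the level, after anti-CD84 and 5.11 after IgG1, at least 1.20-fold lower, Dsc3 at least 1.09-fold lower, and Dsg1a differed by 0.01. Of 11 detected transcription factors known for switching cadherin genes, 1 was 1.5-fold higher and 0 lower (9.09% and 0.00%, beside 10.7% and 6.40%), with a median of -0.01. Klf8, a repressor of Cdh1 in other cells, was 1.73-fold higher, at 7.13 after anti-CD84 and 6.34 after IgG1. Foxc2 differed by -0.55, Tcf4 by 0.48 and Ovol2 by -0.45, the last with its anti-CD84 value below the level.

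**Figure D4:**
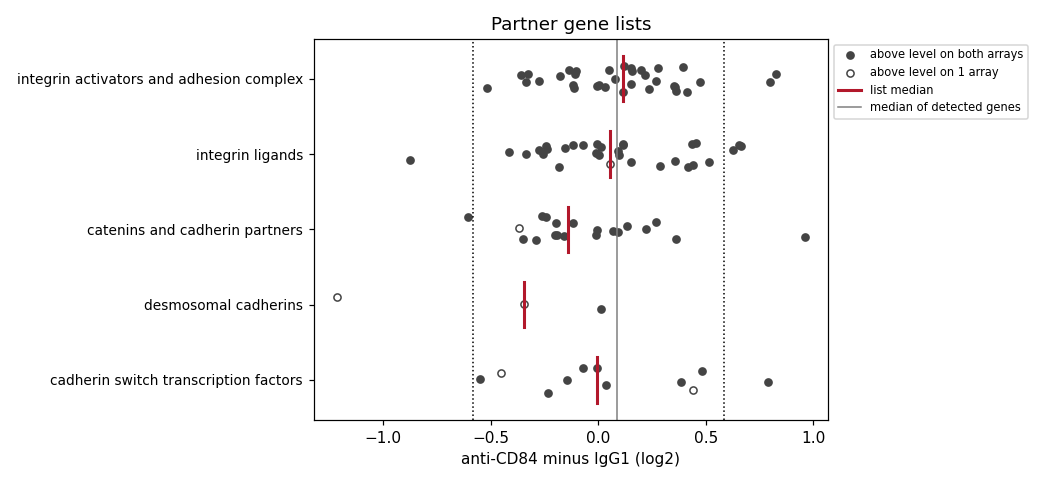
Difference in log2 level, anti-CD84 minus IgG1, of the detected genes of 5 partner lists, 1 point per gene, filled where both arrays were above the detection level and open where 1 was, with a red bar at each list's median, dotted lines at 1.5-fold and a grey line at the median of all detected genes, 0.09. Jup, Tgfb1i1, Sharpin and Klf8 lie to the right of the upper dotted line, and Col4a1 and Dsg2 furthest to the left in their lists.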

How the data were processed

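For each array the deposited log2 values cover 41345 probe sets. They were made with RMA and Partek, according to the submitters' processing notes, and neither versions nor settings are stated there. That the scale is log2 was inferred from a range of 1.82 to 13.8 and medians of 4.87 (anti-CD84) and 4.88 (IgG1). Probe sets were named through the platform annotation, in which 23521 have 1 symbol, 1814 several and 16010 none. Those with several symbols were not used, 2 of which hold an integrin or cadherin symbol of the kind taken here. Where a gene had several probe sets the brightest was taken. All 48 members matched RefSeq (GRCm38.p6), which also gave the promoter sequences. The array's build is not named, so no other coordinates are given. Members, lists and tests were chosen with earlier results of these data known. With 1 array per group no test was run, and the number of arrays limits the precision. Every detected member is named; from each partner list, detected genes past 1.5-fold and up to 3 others by absolute difference. Counting was tested on simulated data with noise far below the spread seen here, which checks the counting step and not the calls. Alternatives were 3 scalings (centring, loess, quantile), 3 level filters, the mean of probe sets and flooring. Python 3.11.15, pandas 2.3.3, R 4.3.3 and limma 3.58.1 were used.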

Additional observations from a re-analysis of the deposited data

How the results depend on the processing

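No paired analysis was possible because each group has 1 array, and for the same reason no replicate could be left out. The count of 4 genes 1.5-fold higher was 3 to 4 under the 8 alternatives chosen first. With the mean of both arrays required above 6.88, an alternative added after seeing the data, 11 members passed, 2 higher and 0 lower, with medians of 0.30 for members and 0.27 for integrins, since Cdh24 and Itgb3 pass that level through the anti-CD84 array alone. The count of 2 lower genes was 0 at the stricter level of 6.88, 0 with both arrays required above the detection level and 1 with the mean of probe sets, where Cdh1 drops out; with no level filter it was 3, the added gene being Itgax, and with centring 3, the added gene being Cdh26. Of the 48 genes, 13 passed the stricter level and 48 entered with no filter, against 30 as reported. At the stricter level the median difference was 0.34 for all detected members and 0.28 for integrins, against 0.13 and 0.12 as reported. Over all genes passing the stricter level it was 0.12. The cadherin median of 0.37 turned to -0.02 with no level filter, where 10 undetected genes enter, and was 0.051 when values below 4.84 were set to 4.84. It was 0.28 to 0.30 under the 3 scalings. Of the 6 genes past 1.5-fold, 5 stayed past it under all 3 scalings and Itgb8 did not, and 3 members (Itgb5, Itgb7 and Cdh22) changed sign under at least 1. Among partner lists, higher integrin ligands numbered 3 as reported and 0, 1 and 1 under centring, loess and quantile scaling, and lower genes of the adhesion complex list numbered 0 as reported and 1 under centring and quantile scaling. The lower ligands were 2 with no level filter. Cadherin-switch factors had 0 lower as reported and 1 under each scaling. Both junction partner counts of 1 were 0 at the stricter level, and the 1 lower desmosomal gene was 0 with both arrays required, with probe sets averaged and with flooring. Signals near the detection level limit what can be read from Cdh1, Cdh5, Cdh6, Cdh7, Cdh15, Cdh26 and Itga4.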

Other observations

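Beyond the numbered cadherins, other members of the cadherin superfamily were looked up after the data had been examined. Clustered protocadherin genes encode cell recognition proteins known from neurons. Of 23 such genes with their own probe set, Pcdhga10 and otherwise beta cluster genes, 10 were detected, 7 of them on both arrays. Of those 7, 4 were 1.5-fold higher after anti-CD84 and 0 lower, beside 9.57% higher and 3.89% lower of all genes measured on both. Among detected genes with mean levels from 5 to 7, where these 4 lie, 13.3% were 1.5-fold higher and 7.69% lower. Pcdhb22 was 2.40-fold higher (6.53 after anti-CD84 and 5.27 after IgG1), Pcdhb20 2.38-fold higher (7.18 after anti-CD84 and 5.93 after IgG1) and Pcdhb17 2.07-fold higher (6.92 after anti-CD84 and 5.87 after IgG1). Pcdhb18 was 1.74-fold higher, and Pcdhb12 and Pcdhb21, below the detection level after IgG1, were at least 1.47-fold and 1.42-fold higher. Pcdhb8 went the other way, with 4.22 (under the level) after anti-CD84 and 5.38 after IgG1. Pcdhb14, Pcdhb16 and Pcdhga10 differed by 0.23, 0.24 and 0.31. These genes are close paralogues whose probes can share signal, and how far they do so here was not tested.

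Of the 9 Fat, Dchs and Celsr genes 3 were detected, 2 of them on both arrays. Of those 2, 1 was 1.5-fold higher and 0 lower, beside 9.57% and 3.89% of all genes measured on both. Fat4, a giant cadherin of planar polarity, was 1.61-fold higher (8.24 after anti-CD84 and 7.56 after IgG1), Fat1 differed by 0.11 and Dchs1 by 0.36 near the detection level. Of 12 non-clustered protocadherins 7 were detected, 5 of them on both arrays, and of those 5, 1 was 1.5-fold higher and 0 lower, beside the same 9.57% and 3.89%. Pcdh10 was 1.88-fold higher (6.24 after anti-CD84 and 5.32 after IgG1), and Pcdh15 had 4.92 after anti-CD84 and, under the level, 4.02 after IgG1, at least 1.06-fold higher.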
